A study of Mus musculus with 6 samples.

Results

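Potassium channel genes were examined in bulk RNA-seq of mouse dorsal root ganglion (DRG) and neurofibroma. They were taken as every gene whose symbol is Kcn followed by letters and a number, which gave 92 of the 24062 genes counted. The comparison was between 3 libraries from *Nf1fl/fl;DhhCre* mice, with a floxed *Nf1* gene, and 3 libraries from mice with floxed *Runx1*, *Runx3* and *Nf1* and the same Cre, called labelled double knockout here. All mice were of strain C57BL/6-I129, the labels name no treatment, and the age at collection is not given in the sources used here. The *Dhh* promoter drives Cre in the Schwann cell (SC) lineage and the floxed genes are lost there, so that neurons, immune cells and vessels keep intact copies. The tissue is given as DRG for all *Nf1fl/fl;DhhCre* libraries and as neurofibroma tumor for all libraries labelled double knockout, whereas the study gives DRG and tumors for both, so that genotype and the labelled tissue cannot be told apart. The labels also leave *Nf1* out of the double-knockout genotype, which was taken from the study. Nor do they say how many mice were pooled in a library.

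Potassium channels let potassium ions leave or enter a cell along their gradient and so set its resting potential, the length of its action potentials and its firing rate. Voltage-gated (Kv) channels are made of pore-forming subunits with accessory subunits that alter their gating and traffic. Calcium- and sodium-activated channels open on ion entry, inward rectifiers hold the resting potential, and K2P channels (with a pair of pore domains per subunit) carry background current. In a ganglion many of these genes are known from the sensory neurons and their axons. By contrast, *Kcnj10* encodes the inward rectifier with which satellite glial cells and SCs take up potassium released by firing neurons. In bulk tissue, fewer cells of a type and less RNA per cell cannot be told apart.

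Total counts per library were 12439296 to 16682194, of which 64222 to 116364 fell on the potassium channel genes. At this depth 3 counts correspond to 0.179 to 0.247 CPM, counts scaled to the library total, a limit that covers counting error only. Libraries of a genotype were not copies of one another. *Runx1* was at 131, 141 and 172 CPM in *Nf1fl/fl;DhhCre* replicates 1 to 3 and at 84.0, 78.9 and 185 CPM in replicates 1 to 3 labelled double knockout. Replicate 3 labelled double knockout was therefore the highest of all for a gene that was floxed in these mice, and calls are also given without it. This bulk level includes RNA of cells that keep the gene intact, so it does not measure the loss of *Runx1* in SCs. *Runx3* was at 19.9, 15.1 and 29.9 CPM against 13.5, 10.3 and 12.1 CPM, lower without overlap in the libraries labelled double knockout, replicate 3 included, and did not pass (log2 fold change -0.79, limma-voom adjusted p = 0.104). A different sequencing run is named for 1 double-knockout library, which by conflicting mouse numbers is either replicate 2 or replicate 3. Nothing in the labels says that the libraries came from separate mice beyond the mouse numbers in their titles, and p-values measure the spread between these libraries.

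Of the 92 genes, 71 passed the filter on low counts and were tested with limma-voom. In the libraries labelled double knockout 28 of them were up-regulated and 2 down-regulated, with an adjusted p below 0.05 and a difference over 2-fold. Over all 15652 genes tested the same thresholds called 8.03% higher and 5.36% lower. At any fold 31 of the 71 genes were higher and 3 lower, against 11.1% and 8.22% of all genes. The median log2 fold change of the 71 genes was 1.62, against 0.02 over all genes. The estimate was above 0 for 57 of the 71 genes, against 51.1% of all genes, and all libraries labelled double knockout lay above all *Nf1fl/fl;DhhCre* libraries for 38 of them, against 21.8%. They lay below for 6, against 20.5%. The up-regulated genes came from every structural class of channel, and the down-regulated genes were *Kcnj10* and *Kcnk6*. By the cell type lists used below, 20 of the up-regulated genes were neuronal, 1 was vascular and 7 were on no list. Those 7 were 35% of the 20 tested genes on no list, against 8.03% of all genes.

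The 21 genes that did not pass the filter were low in every library. *Kcnk15* had no count in any of them, 16 stayed under 1 CPM throughout, and the highest value was 4.68 CPM, for *Kcne3* in *Nf1fl/fl;DhhCre* replicate 3. These were *Kcna10*, *Kcnd2*, *Kcng1*, *Kcng2*, *Kcns2*, *Kcnv2*, *Kcnh3*, *Kcnh4*, *Kcne1*, *Kcne2*, *Kcne3*, *Kcnmb3*, *Kcnj1*, *Kcnj4*, *Kcnj5*, *Kcnj14*, *Kcnk7*, *Kcnk9*, *Kcnk12*, *Kcnk15* and *Kcnk16*. These genes were not tested.

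**Figure D1:**
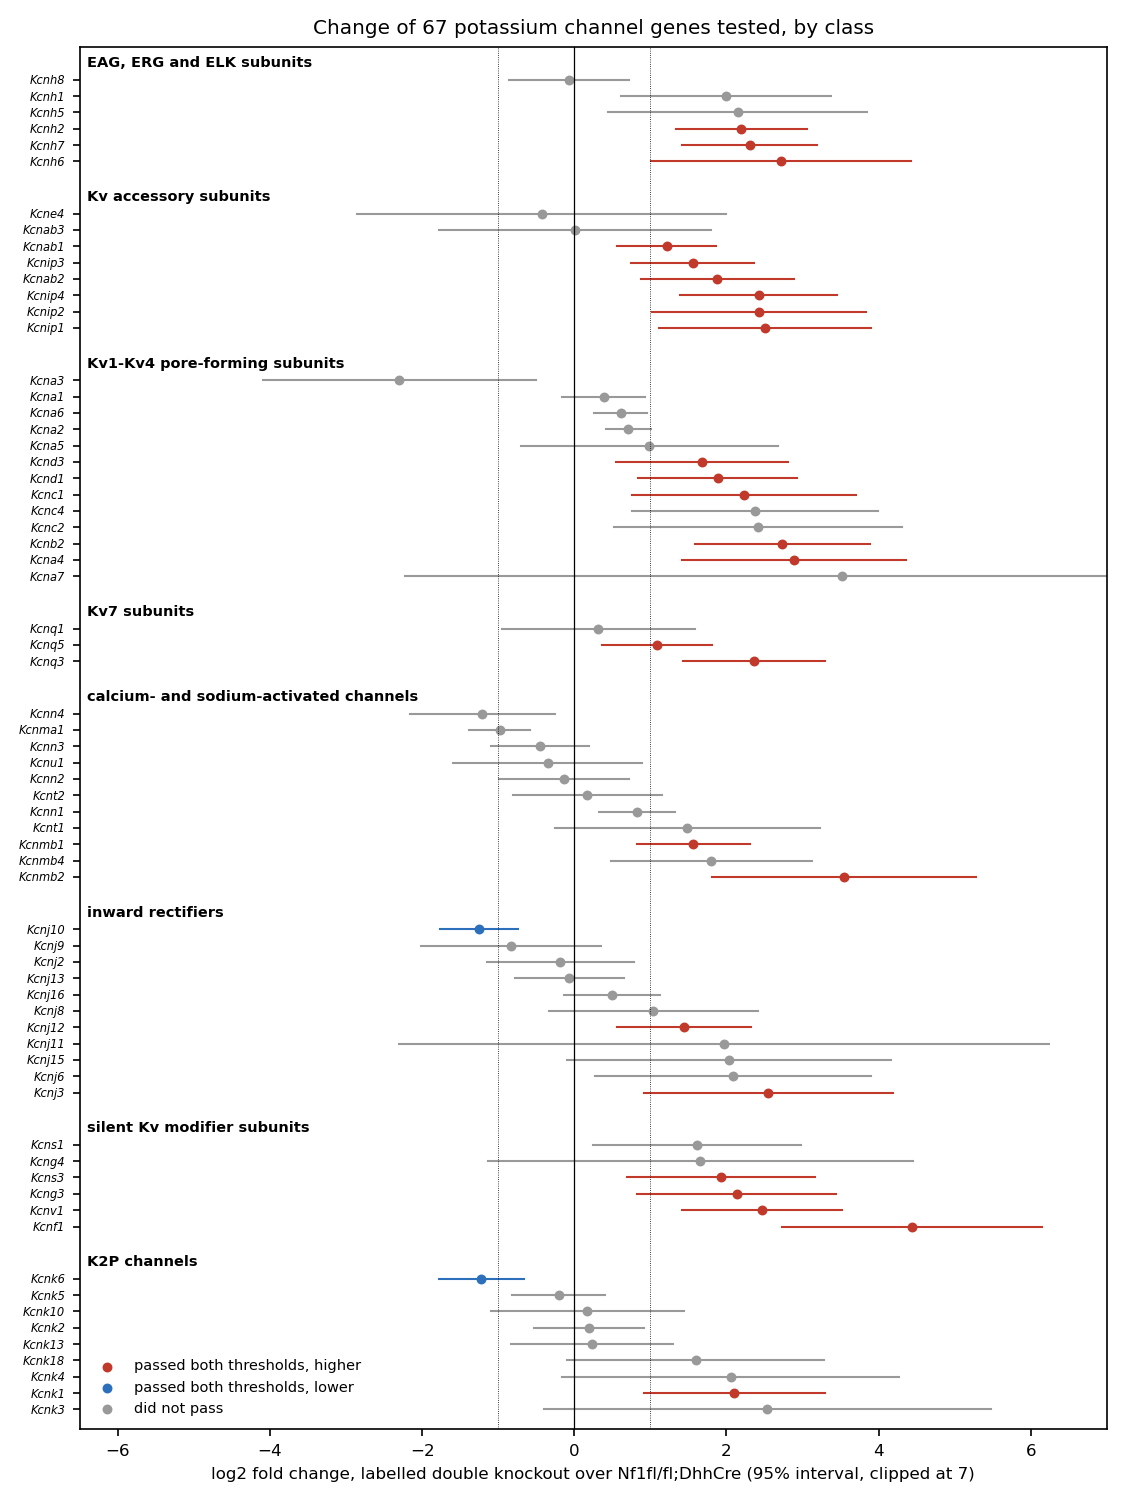
Log2 fold change of 67 of the 71 potassium channel genes tested, labelled double knockout over *Nf1fl/fl;DhhCre*, grouped by class, with 95% intervals of the limma-voom fit and dotted lines at a 2-fold change. Red marks 25 up-regulated genes, blue the 2 down-regulated genes (*Kcnj10* and *Kcnk6*) and grey 40 that did not pass.

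The letters TGTGG are the core of the motif that RUNX factors bind, and the 250 bases before the start of the genes were searched for them on both strands. Windows for 67 of the 92 genes were found in RefSeq (GRCm38.p6), 92 windows in all because some genes have several starts. The motif was in 43.5% of these windows, against 49.3% of the 32851 windows of all genes. For the up-regulated genes it was in 34.4% of 32 windows, and for those that did not pass in 47.7%. No more of these windows held the letters than windows of other genes did, and a match is not a binding site. In the study most RUNX1 peaks lay farther from gene starts than these 250 bases. The search therefore cannot tell whether RUNX factors act on these genes. The windows of 3 genes are shown, those of the down-regulated glial gene *Kcnj10*, of *Kcnf1* with the largest change and of *Kcnh7* with little spread within a genotype relative to neuron markers, 5′ to 3′ on the strand of the gene, with the motif in capitals where it was found.
Kcnj10, chr1:172340960-172341209, plus strand: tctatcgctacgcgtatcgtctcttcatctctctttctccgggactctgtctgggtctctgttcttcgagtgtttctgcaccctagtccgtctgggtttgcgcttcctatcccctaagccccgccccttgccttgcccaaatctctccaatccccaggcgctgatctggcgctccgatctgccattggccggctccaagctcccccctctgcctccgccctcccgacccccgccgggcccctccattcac
Kcnf1, chr12:17176889-17177138, minus strand: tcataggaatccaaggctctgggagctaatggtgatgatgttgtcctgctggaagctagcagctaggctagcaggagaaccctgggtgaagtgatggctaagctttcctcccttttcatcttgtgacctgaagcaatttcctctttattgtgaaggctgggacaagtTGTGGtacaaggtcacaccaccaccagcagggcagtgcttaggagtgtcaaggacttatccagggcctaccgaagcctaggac
Kcnh7, chr2:63184288-63184537, minus strand: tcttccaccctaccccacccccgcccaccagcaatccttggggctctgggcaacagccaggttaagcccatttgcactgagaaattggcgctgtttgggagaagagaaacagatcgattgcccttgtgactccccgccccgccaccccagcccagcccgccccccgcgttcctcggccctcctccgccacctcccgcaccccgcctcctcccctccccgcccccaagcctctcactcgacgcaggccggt
The *Kcnj10* window had a GC content of 62% with 17 CpG sites and no match to the motif, the *Kcnf1* window had 51.2% with 1 CpG site and 1 match, and the *Kcnh7* window had 67.6% with 16 CpG sites and no match.

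*Kcnj10* lies on chromosome 1 of GRCm38 from 172341210 to 172374085 on the plus strand. Its level was 432, 361 and 413 CPM in *Nf1fl/fl;DhhCre* replicates 1 to 3 and 181, 119 and 219 CPM in replicates 1 to 3 labelled double knockout. The genotypes did not overlap, and replicate 2 was the lowest library of each. The log2 fold change was -1.25 (± 0.22 SE, 95% interval -1.77 to -0.74, limma-voom adjusted p = 0.0138), a level 2.38-fold higher in the *Nf1fl/fl;DhhCre* libraries. Without replicate 3 labelled double knockout it was -1.45 (limma-voom adjusted p = 0.017). Without *Nf1fl/fl;DhhCre* replicate 1 it was -1.17 and did not pass (limma-voom adjusted p = 0.0564). *Kcnj10* made up 7.87% to 10.02% of all potassium channel CPM in the *Nf1fl/fl;DhhCre* libraries and 2.04% to 2.84% in the libraries labelled double knockout.

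*Kcnj16* encodes the inward rectifier that combines with the *Kcnj10* product. It was at 5.06, 5.24 and 5.13 CPM in the *Nf1fl/fl;DhhCre* libraries against 5.66, 7.07 and 9.24 CPM in those labelled double knockout, and did not pass (log2 fold change 0.50 ± 0.27 SE, limma-voom adjusted p = 0.232). Satellite glial cell markers were not lower with *Kcnj10*. Of 6 markers, 1 was called higher, against 8.03% of all genes, with a median log2 fold change of 0.54. Their summed level was 661 to 1221 CPM in the *Nf1fl/fl;DhhCre* libraries and 755 to 1502 CPM in those labelled double knockout. General SC markers had a median log2 fold change of -0.05 (2 of 9 called higher). Of the myelinating SC markers 9 of 10 were called higher with a median of 1.41, against the same 8.03% of all genes. All of these markers had counts in every library. The part of these cell types in the *Kcnj10* result was not tested.

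The neuronal channel genes were set against *Kcnj10* within each library. The log2 ratio, from log2(CPM + 0.5), was above that of every *Nf1fl/fl;DhhCre* library in every library labelled double knockout for 37 of the 40 neuronal genes tested, and below it for none. Over all genes tested the same ratio was above without overlap for 76.7% and below for 1.76%, since *Kcnj10* itself was lower, and the count for the neuronal genes largely restates that. *Kcnn2*, with a log2 fold change of -0.13, was among the 37. The genotypes overlapped for the other 3, *Kcnma1*, *Kcnj9* and *Kcng4*. For *Kcnip4* the ratio was -4.45, -3.13 and -4.89 in the *Nf1fl/fl;DhhCre* libraries and -0.99, -0.28 and -0.24 in those labelled double knockout, a change of 3.65 on the log2 scale. The ratio of *Kcna1* changed by 1.64, from 2.19 ± 0.22 (SD, n = 3) to 3.83 ± 0.36 (SD, n = 3), and that of *Kcna2* by 1.96, from 1.73 ± 0.18 to 3.69 ± 0.29 (SD, n = 3 each). The numerator of each ratio differs, but the denominator is shared, so that the ratios are not independent of one another.

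**Figure D2:**
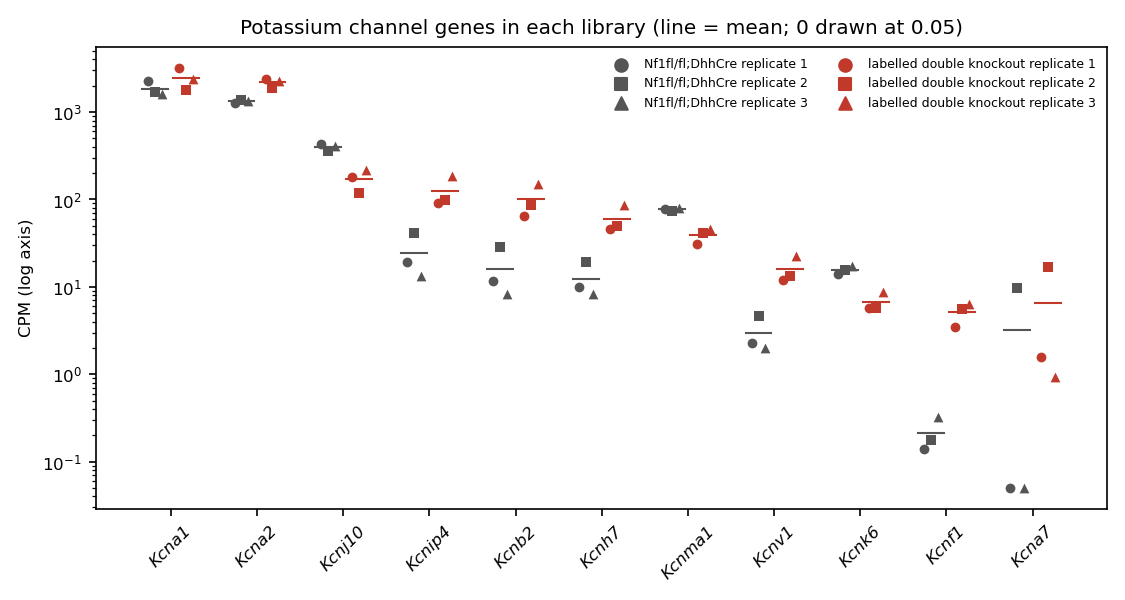
CPM of 11 potassium channel genes in each of the 6 libraries on a log axis, with a line at the mean of each genotype and a count of 0 drawn at 0.05. *Kcnj10*, *Kcnma1* and *Kcnk6* lie lower in all libraries labelled double knockout, *Kcnip4*, *Kcnb2*, *Kcnh7*, *Kcnv1* and *Kcnf1* lie higher in all of them, and *Kcna7* is high in replicate 2 of both genotypes.

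The neuronal list held 44 genes, of which 40 were tested. Of these, 20 were up-regulated (50%, against 8.03% of all genes), none was down-regulated, and the median log2 fold change was 2.02. At an unadjusted p below 0.05 and the same fold, 27 were higher and none was lower, edgeR's quasi-likelihood test called 18 higher and none lower, and DESeq2 called 26 higher and none lower. Over all genes these settings called 19%, 14.5% and 18.6% in either direction, in the same order. The 20 that did not pass included the most abundant of all, *Kcna1*, *Kcna2* and *Kcna6*. The list was chosen with earlier results of these data known, and its median is a description.

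Genes for pore-forming subunits of the Kv1 to Kv4 families carry the delayed-rectifier and transient currents of neurons. Of 17 genes, 15 were tested and 7 were up-regulated (46.7%, against 8.03% of all genes), among them *Kcna4*, *Kcnb2*, *Kcnc1*, *Kcnd1* and *Kcnd3*. The median log2 fold change was 2.17. *Kcnb2*, for a delayed rectifier of the neuronal soma, was at 11.7, 28.5 and 8.34 CPM in the *Nf1fl/fl;DhhCre* libraries against 65.2, 85.6 and 150 CPM in those labelled double knockout (log2 fold change 2.73 ± 0.49 SE, limma-voom adjusted p = 0.0147). The lowest library labelled double knockout lay more than 2-fold above the highest *Nf1fl/fl;DhhCre* library. *Kcna4*, which gives a rapidly inactivating current, rose from 2.22, 5.12 and 1.22 CPM to 11.4, 17.5 and 29.0 CPM, with a log2 fold change of 2.89. *Kcnc1*, for a fast high-threshold delayed rectifier, was at 4.65, 28.7 and 5.97 CPM against 28.6, 51.1 and 62.1 CPM (log2 fold change 2.24, limma-voom adjusted p = 0.0468). It was the 1 called gene whose genotypes overlapped, through *Nf1fl/fl;DhhCre* replicate 2, and it did not pass with edgeR (1.85, edgeR adjusted p = 0.108). *Kcnd1* and *Kcnd3*, of the transient Kv4 family, had log2 fold changes of 1.89 and 1.68. *Kcnc2* (2.41) and *Kcnc4* (2.37) had estimates of the same size with adjusted p of 0.0769 and 0.0517 from limma-voom.

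The Kv1 genes *Kcna1*, *Kcna2* and *Kcna6* changed less. In myelinated axons the products of *Kcna1* and *Kcna2* cluster beside the nodes of Ranvier, under the myelin sheath. Which cells of the tissue the RNA of these genes came from was not tested. *Kcna1* was at 2265, 1677 and 1604 CPM in the *Nf1fl/fl;DhhCre* libraries against 3196, 1786 and 2376 CPM in those labelled double knockout. These values overlapped, and the gene did not pass (log2 fold change 0.39 ± 0.23 SE, 95% interval -0.16 to 0.93, limma-voom adjusted p = 0.279). *Kcna2* was at 1273, 1360 and 1351 CPM and at 2390, 1863 and 2294 CPM, without overlap. Its log2 fold change of 0.71 (± 0.12 SE, limma-voom adjusted p = 0.0141) passed the first threshold and was under 2-fold, as was that of *Kcna6* (172, 150 and 163 CPM against 264, 204 and 277 CPM, log2 fold change 0.61, limma-voom adjusted p = 0.0306). *Kcna1* and *Kcna2* together took 60.8% to 74.4% of all potassium channel CPM in the 6 libraries. With these, *Kcna6* and *Kcnma1* set aside, the other 40 genes of the neuronal list summed to 326, 583 and 216 CPM in the *Nf1fl/fl;DhhCre* libraries and to 906, 1190 and 1814 CPM in those labelled double knockout. The genes set aside did not pass both thresholds and *Kcnma1* was lower, so this sum favours a rise. All potassium channel genes together summed to 4825, 4584 and 4119 CPM against 7503, 5803 and 7682 CPM.

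Silent modifier subunits form no channel alone and combine with Kv2 subunits such as that of *Kcnb2*. Of 10 genes, 6 were tested and 4 were up-regulated (66.7%, against 8.03% of all genes), with a median log2 fold change of 2.03. *Kcnf1* had the largest change of all potassium channel genes. It was at 0.14, 0.18 and 0.32 CPM in the *Nf1fl/fl;DhhCre* libraries against 3.51, 5.59 and 6.34 CPM in those labelled double knockout (log2 fold change 4.44 ± 0.73 SE, 95% interval 2.74 to 6.14, limma-voom adjusted p = 0.0126). These stand for 2, 3 and 5 counts against 44, 68 and 96 counts, so that the size of the change is imprecise. *Kcnf1* reached the filter's minimum count of 10 only in the libraries labelled double knockout. Its call and its rank are therefore descriptions. *Kcnv1* was at 2.29, 4.65 and 1.99 CPM against 11.95, 13.4 and 22.6 CPM (log2 fold change 2.46 ± 0.45 SE, limma-voom adjusted p = 0.0151). *Kcng3* and *Kcns3* had log2 fold changes of 2.13 and 1.93, and *Kcns1* (1.62) and *Kcng4* (1.66) did not pass.

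Accessory subunits of Kv channels showed the highest share of up-regulated genes, 6 of 8 tested of 11 listed (75%, against 8.03% of all genes). Their median log2 fold change was 1.72. *Kcnip1* to *Kcnip4* encode calcium-binding proteins that attach to Kv4 channels, and all of them passed. *Kcnip4* was at 19.2, 40.9 and 13.5 CPM in the *Nf1fl/fl;DhhCre* libraries against 90.9, 97.8 and 185 CPM in those labelled double knockout (log2 fold change 2.42 ± 0.44 SE, limma-voom adjusted p = 0.0149). *Kcnip3* was the most abundant, at 37.0, 78.0 and 45.8 CPM against 108, 143 and 219 CPM, with a log2 fold change of 1.55 (limma-voom adjusted p = 0.024). *Kcnip1* and *Kcnip2* had log2 fold changes of 2.51 and 2.43, and *Kcnab1* and *Kcnab2*, which encode beta subunits of Kv1 channels, had 1.21 and 1.88. *Kcnab3* (0.01) and *Kcne4* (-0.43) did not pass, with 95% intervals from -1.78 to 1.79 and from -2.85 to 1.997.

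Kv7 channels carry the M current, which restrains repetitive firing, and *Kcnq3* encodes a main neuronal subunit of it. All 5 Kv7 genes were tested and 3 were up-regulated (60%, against 8.03% of all genes). *Kcnq3* was at 1.25, 1.79 and 1.35 CPM in the *Nf1fl/fl;DhhCre* libraries against 5.58, 8.31 and 9.18 CPM in those labelled double knockout (log2 fold change 2.36, limma-voom adjusted p = 0.0130). *Kcnq5* rose less, with a log2 fold change of 1.09, and *Kcnq1* (0.32), a gene of heart and epithelia, did not pass. Of 8 genes of the EAG, ERG and ELK families, 6 were tested. The ERG genes *Kcnh2*, *Kcnh6* and *Kcnh7* were up-regulated (50%, against 8.03% of all genes). *Kcnh7* was at 10.1, 19.1 and 8.27 CPM against 46.0, 49.3 and 85.5 CPM (log2 fold change 2.31 ± 0.38 SE, limma-voom adjusted p = 0.0126), *Kcnh2* had a log2 fold change of 2.20 and *Kcnh6* of 2.71. *Kcnh6* did not pass with edgeR (edgeR adjusted p = 0.0780). It had 3, 48 and 19 counts against 70, 73 and 123 counts. With *Nf1fl/fl;DhhCre* replicate 1 under the filter's minimum count of 10, it needed the libraries labelled double knockout to pass the filter. Its call is therefore a description. The EAG genes *Kcnh1* (1.995) and *Kcnh5* (2.14) did not pass, and *Kcnh8* (-0.07, 95% interval -0.86 to 0.72) differed from the others of its class in its estimate.

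Calcium- and sodium-activated channels had estimates of both signs, 6 above 0 and 5 below. Of 12 genes, 11 were tested and 2 were up-regulated (18.2%, against 8.03% of all genes). The median log2 fold change was 0.17. *Kcnma1*, for the pore of the large-conductance calcium-activated (BK) channel of neurons and smooth muscle, was at 77.7, 73.3 and 80.4 CPM in the *Nf1fl/fl;DhhCre* libraries against 30.6, 41.3 and 46.3 CPM in those labelled double knockout. It was lower without overlap, and its log2 fold change of -0.98 (± 0.17 SE, limma-voom adjusted p = 0.0141) was just under 2-fold. Without replicate 3 labelled double knockout it was -1.11 and passed both thresholds (limma-voom adjusted p = 0.0204), and it also passed without replicate 2 (-1.02). Both called genes of this class encode beta subunits of the same channel. *Kcnmb2* had 2, 4 and 1 counts against 18, 29 and 30 counts (log2 fold change 3.54, 95% interval 1.80 to 5.28, limma-voom adjusted p = 0.0209). It reached the filter's minimum count of 10 only in the libraries labelled double knockout, so its call is a description. *Kcnmb1*, known from vascular smooth muscle, was at 11.7, 17.6 and 8.79 CPM against 30.5, 30.5 and 50.04 CPM (log2 fold change 1.57, limma-voom adjusted p = 0.0195). *Kcnt1*, for a sodium-activated channel of sensory neurons, was at 38.8, 88.5 and 8.15 CPM against 74.0, 67.7 and 123 CPM, and the spread between *Nf1fl/fl;DhhCre* libraries was as wide as the difference (log2 fold change 1.49 ± 0.74 SE, limma-voom adjusted p = 0.198). Without *Nf1fl/fl;DhhCre* replicate 2 it passed, at 2.33 (limma-voom adjusted p = 0.0398). *Kcnn1*, for a small-conductance calcium-activated channel of neurons, rose by less than 2-fold (log2 fold change 0.82, limma-voom adjusted p = 0.0371), and *Kcnn2* (-0.13), *Kcnn3* (-0.45), *Kcnt2* (0.17), *Kcnmb4* (1.80) and *Kcnu1* (-0.35) did not pass.

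Inward rectifiers and K2P channels also had estimates of both signs. Of 15 inward rectifier genes, 11 were tested, with a median log2 fold change of 1.04. *Kcnj3* and *Kcnj12* were up-regulated (18.2%, against 8.03% of all genes), and *Kcnj10* was down-regulated, against 5.36% of all genes. *Kcnj3* encodes a subunit of the channel that G protein-coupled receptors open, and was at 0.35, 0.66 and 2.37 CPM in the *Nf1fl/fl;DhhCre* libraries against 3.51, 4.52 and 7.46 CPM in those labelled double knockout (log2 fold change 2.55, limma-voom adjusted p = 0.0432). It did not pass with edgeR (edgeR adjusted p = 0.0699). *Kcnj6* (2.08), *Kcnj9* (-0.83), *Kcnj2* (-0.19) and *Kcnj15* (2.04) did not pass. *Kcnj13*, known from epithelia, was at 26.0, 40.1 and 17.7 CPM against 29.6, 25.2 and 22.2 CPM and did not pass (log2 fold change -0.07, 95% interval -0.78 to 0.65). It shares exon bases with *Gigyf2*, as *Kcnh7* does with *Gca*, and whether strand was used in counting is not given in the sources used here. Other members share exon bases with other genes too, among them *Kcnip4*, *Kcnab2*, *Kcnk1*, *Kcnd3*, *Kcna6* and *Kcnma1*. Of 14 K2P genes, 9 were tested, with a median log2 fold change of 0.23. Of these, 1 was up-regulated (11.1%, against 8.03% of all genes), *Kcnk1* (log2 fold change 2.10, limma-voom adjusted p = 0.0304). The 1 that was down-regulated was *Kcnk6*, against 5.36% of all genes. Single calls near these shares describe the genes and not the class. *Kcnk18*, for a background channel of sensory neurons, did not pass (log2 fold change 1.60, limma-voom adjusted p = 0.162), nor did *Kcnk4* (2.05), *Kcnk10* (0.17), *Kcnk2* (0.19), *Kcnk5* (-0.20) and *Kcnk3* (2.54).

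Of 4 channel genes known from immune cells, 1 was down-regulated in the libraries labelled double knockout, against 5.36% of all genes. *Kcnk6*, for a K2P channel of macrophages, was at 14.2, 15.4 and 17.1 CPM in the *Nf1fl/fl;DhhCre* libraries against 5.74, 5.67 and 8.65 CPM in those labelled double knockout (log2 fold change -1.22 ± 0.24 SE, limma-voom adjusted p = 0.0177). It was called in 3 of the 6 fits that each lacked a library, and not without both libraries rich in muscle markers (-1.11, limma-voom adjusted p = 0.0708). *Kcnn4*, for the intermediate-conductance channel of lymphocytes and macrophages, was at 18.7, 11.1 and 25.3 CPM against 7.17, 5.26 and 10.4 CPM and did not pass (log2 fold change -1.21, limma-voom adjusted p = 0.0786). *Kcna3*, for the Kv1 channel of T cells and macrophages, was at 2.64, 2.03 and 3.78 CPM against 0.40, 0.16 and 1.58 CPM and did not pass (log2 fold change -2.30, limma-voom adjusted p = 0.0754). These 3 were lower without overlap, against 20.5% of all genes, and *Kcnk13* (9.92, 3.34 and 3.21 CPM against 5.26, 5.59 and 5.48 CPM, log2 fold change 0.23) overlapped. *Kcna3* had only 5, 2 and 24 counts in the libraries labelled double knockout, and replicate 2 among them lay under the limit of 3 counts. The median of the 4 genes was -1.21. Macrophage markers were lower in the same libraries, with 10 of 12 called lower against 5.36% of all genes. Their summed level was 1221 to 2382 CPM against 211 to 499 CPM. T and NK cell markers summed to 20.8 to 60.7 CPM against 4.09 to 6.46 CPM. Of 6 tested 1 was called lower, a single call, and *Cd3g*, *Klrd1* and *Nkg7* were at 0 in at least 1 library. Fibroblast markers were lower too, with 4 of 8 called lower against 5.36% of all genes, at 9205 to 9868 CPM against 3418 to 5646 CPM. Their part in these results was not tested.

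Channel genes known from vessels gave 1 up-regulated gene of 3, *Kcnmb1*, against 8.03% of all genes. *Kcnj8*, for the ATP-sensitive channel of mural cells, was at 2.70, 3.87 and 5.13 CPM against 10.04, 14.8 and 3.70 CPM, low in replicate 3 labelled double knockout (log2 fold change 1.04, limma-voom adjusted p = 0.250). Without that replicate it passed, at 1.67 (limma-voom adjusted p = 0.0342). *Kcna5*, of vascular smooth muscle, was at 1.60, 1.73 and 0.51 CPM against 2.63, 4.52 and 1.12 CPM and did not pass. Endothelial and mural cell markers summed to 389 to 467 CPM against 349 to 640 CPM, and overlapped between the genotypes.

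The 2 channel genes of skeletal muscle were highest in replicate 2 of each genotype and did not pass. *Kcna7*, a Kv1 gene of muscle, had 0, 163 and 0 counts in the *Nf1fl/fl;DhhCre* libraries and 20, 207 and 14 counts in those labelled double knockout. *Kcnj11*, for the pore of the ATP-sensitive channel of muscle, was at 0, 3.16 and 0.45 CPM against 0.24, 6.83 and 2.05 CPM. Skeletal muscle markers stood out in the same libraries, with summed levels of 2940 and 12226 CPM in replicate 2 of the genotypes and 15.3 to 85.1 CPM in the other libraries, where *Myh4* was at 0 in at least 1. Without these 2 libraries, a setting chosen after seeing the data, 28 potassium channel genes were still called higher and 3 lower, 25 of the 30 called with all libraries among them, and 11.1% of all genes were called in either direction. *Kcna7* had no count in the remaining *Nf1fl/fl;DhhCre* libraries against 20 and 14 counts. It entered that fit only through the libraries labelled double knockout, so no difference is read from its call there (limma-voom adjusted p = 0.0302).

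*Kcnk3* and *Kcnj15* are described for their spread among the libraries labelled double knockout, and were chosen after their values were seen. *Kcnk3*, for an acid-sensitive background channel, was at 3.26, 0.54 and 6.35 CPM in the *Nf1fl/fl;DhhCre* libraries against 25.7, 25.8 and 3.70 CPM in those labelled double knockout. *Kcnj15* was at 11.5, 8.46 and 5.64 CPM against 95.4, 42.2 and 10.3 CPM. In both, replicate 3 labelled double knockout lay within the range of the *Nf1fl/fl;DhhCre* libraries and the other replicates of its label far above it, as for *Kcnj8*. Without that replicate both passed, with log2 fold changes of 3.56 for *Kcnk3* and 2.96 for *Kcnj15*, which the way they were chosen had made likely.

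Per length of exon, *Kcna1* and *Kcna2* led in both genotypes, and *Kcnj10* moved from the third to the sixth place. *Kcna1* was at 387 ± 75.8 CPM per kb of exon in the *Nf1fl/fl;DhhCre* libraries against 513 ± 148 CPM per kb in those labelled double knockout, and *Kcna2* was at 112 ± 4.04 and 183 ± 23.5 CPM per kb (SD, n = 3 each). *Kcnj10* was at 74.3 ± 6.80 CPM per kb in the *Nf1fl/fl;DhhCre* libraries, above *Kcna6* at 27.2 ± 1.84 and *Kcnj13* at 21.997 ± 8.91 CPM per kb (SD, n = 3 each). Only *Kcna1* and *Kcna2* lay above it there by their means. In the libraries labelled double knockout *Kcnj10* was at 31.9 ± 9.34 CPM per kb, and *Kcnip3* (44.1 ± 16.0), *Kcna6* (41.7 ± 6.501) and *Kcnip4* (34.3 ± 14.4 CPM per kb, SD, n = 3 each) lay above it as well. The means of *Kcnip3*, *Kcna6*, *Kcnip4*, *Kcnj10* and *Kcnk1* (29.1 ± 9.75 CPM per kb, SD, n = 3) differed from one to the next by less than the larger of their SDs. The ratio of *Kcnip4* to *Kcnj10*, both per kb, was 0.095 ± 0.065 in the *Nf1fl/fl;DhhCre* libraries and 1.08 ± 0.29 in those labelled double knockout (SD, n = 3 each), and that of *Kcna2* was 1.51 ± 0.19 and 5.97 ± 1.18.

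**Figure D3:**
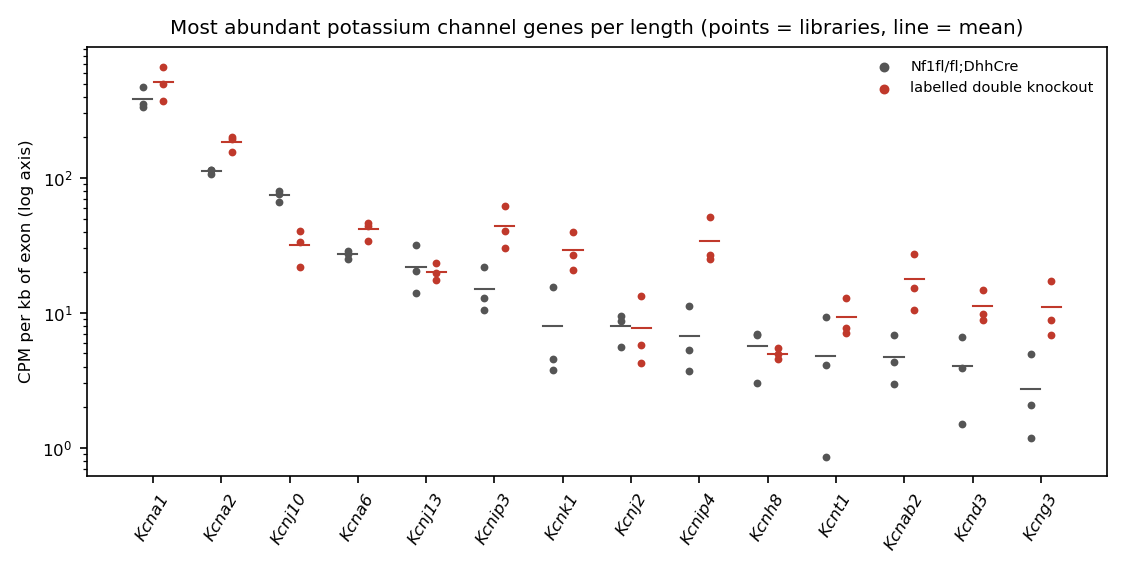
CPM per kb of exon, on a log axis, of 14 potassium channel genes that were among the 12 highest in either genotype, with points for the 3 libraries of each genotype and a line at their mean. *Kcnj10* is the third highest gene in the *Nf1fl/fl;DhhCre* libraries at 74.3 CPM per kb and lies at 31.9 CPM per kb in those labelled double knockout, while *Kcnip3*, *Kcnk1* and *Kcnip4* lie higher in them.

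Sensory neuron markers rose in the same libraries as the neuronal channels. Of 23 markers, all with counts in every library, 21 were called higher and none lower, against 8.03% and 5.36% of all genes. Their summed level was 1976 to 3441 CPM in the *Nf1fl/fl;DhhCre* libraries and 7562 to 16050 CPM in those labelled double knockout. Neuron RNA was thus present in all libraries and higher in those whose labelled tissue is tumor than in those whose labelled tissue is ganglion. Their mean log2(CPM + 0.5) was 4.83, 5.74 and 4.60 against 6.71, 6.98 and 7.70, a difference of 2.07. The highest library was replicate 2 among *Nf1fl/fl;DhhCre* and replicate 3 among those labelled double knockout. The same pair of libraries was the highest for 22 of the 40 neuronal channel genes (55%) and 29 of all 71 (40.8%), against 18.5% of all genes.

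Relative to this marker mean, 20 of the 40 neuronal channel genes differed between genotypes by less than 0.5 on the log2 scale, 17 were lower by more than 0.5 and 3 were higher by more than 0.5. The pseudocount of 0.5 CPM lowers the differences of low genes, and with 0.1 CPM in its place, chosen after seeing the data, the counts were 24, 13 and 3. *Kcnh7* varied little within a genotype relative to the markers, at -1.43, -1.45 and -1.47 in the *Nf1fl/fl;DhhCre* libraries against -1.17, -1.34 and -1.28 in those labelled double knockout. *Kcnv1* was at -3.35, -3.38 and -3.29 against -3.07, -3.18 and -3.17. Both genes were picked for their small spread within a genotype, and both lay higher without overlap in the libraries labelled double knockout, by 0.19 and 0.20. With a pseudocount of 1 CPM *Kcnv1* overlapped, at 0.07, and *Kcnh7* did not, at 0.18. The 3 genes above the marker mean were *Kcnf1* (0.89), *Kcnb2* (0.62) and *Kcna4* (0.57). *Kcnf1* overlapped between genotypes here. With 0.1 CPM it did not overlap and its difference was 1.96, and with 1 CPM it overlapped and its difference was 0.28. *Kcna1* (-1.69), *Kcna2* (-1.36) and *Kcna6* (-1.46) lay below the marker mean, and *Kcnma1* (-3.05) lay furthest below. The same difference was -3.33 for *Kcnj10*. These values were not tested, and the part of neuron content in the changes was not tested.

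**Figure D4:**
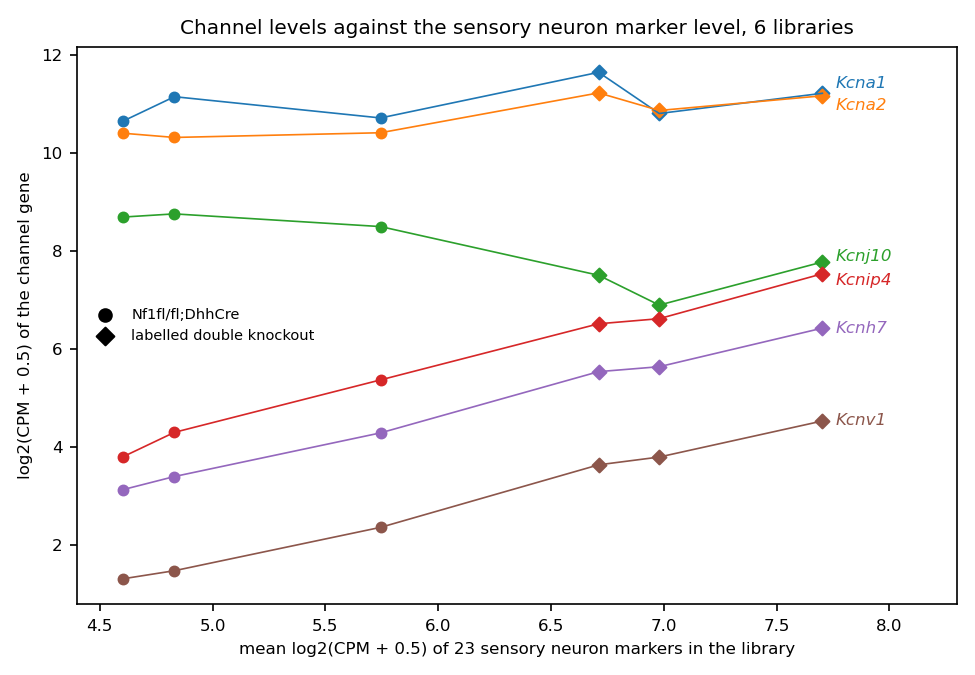
log2(CPM + 0.5) of 6 potassium channel genes in each of the 6 libraries against the mean log2(CPM + 0.5) of 23 sensory neuron markers in the same library, with circles for *Nf1fl/fl;DhhCre* and diamonds for labelled double knockout. *Kcnip4*, *Kcnh7* and *Kcnv1* are higher where the markers are higher, and *Kcna1* and *Kcna2* vary less between libraries than these. *Kcna2* is higher and *Kcnj10* lower in all libraries labelled double knockout.

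Genes that work with potassium channels were taken from a list of 25, of which 22 were tested, 9 were up-regulated (40.9%, against 8.03% of all genes) and none was down-regulated. At an unadjusted p below 0.05 and the same fold 11 were higher and none was lower, and edgeR called 9 and DESeq2 10 higher and none lower. Of all genes, 19%, 14.5% and 18.6% were called in either direction at these settings, in the same order. *Dpp6* and *Dpp10*, which encode auxiliary subunits of Kv4 channels, had log2 fold changes of 2.43 and 3.19. *Cntnap2*, whose product holds Kv1 channels beside the nodes, was at 13.5, 21.8 and 10.9 CPM in the *Nf1fl/fl;DhhCre* libraries against 64.9, 75.7 and 130 CPM in those labelled double knockout (log2 fold change 2.55, limma-voom adjusted p = 0.0100). It rose by more than *Kcna1* and *Kcna2*. *Amigo1*, for an auxiliary subunit of Kv2 channels, had 1.16, and *Hcn3*, for a pacemaker channel that passes sodium and potassium, had 2.96. Of the sodium pump beta subunit genes, *Atp1b1* (2.24) rose and the glial *Atp1b2* (-0.06) did not pass, and neither did the chloride-potassium cotransporter genes *Slc12a4* (-0.64), *Slc12a5* (0.57) and *Slc12a7* (0.01). *Slc12a2* (0.81, limma-voom adjusted p = 0.0159) and *Atp1b3* (0.88, limma-voom adjusted p = 0.0185) passed the first threshold and were under 2-fold.

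The calls depended on single libraries, over all genes as well as among the channel genes. With all libraries 13.4% of all genes were called in either direction, against 2.26% without *Nf1fl/fl;DhhCre* replicate 1 and 9.98% without replicate 3 labelled double knockout. Without *Nf1fl/fl;DhhCre* replicate 1 limma-voom called none of the channel genes, although 32 were higher and 4 lower at an unadjusted p below 0.05 with the same fold, edgeR called 3 higher and none lower, and DESeq2 called 30 higher and 2 lower. The share of 2.26% is for limma-voom at the adjusted threshold. No share of all genes is given here for the other settings without that replicate, so those counts are descriptions. When replicate 3 labelled double knockout was set aside for its *Runx1* level, limma-voom called 18 higher and 3 lower. Of the 30 genes called with all libraries 13 were no longer called, among them *Kcnmb2*, *Kcnh6*, *Kcnj3*, *Kcnj12*, *Kcnab1*, *Kcnip1*, *Kcnc1*, *Kcnd3*, *Kcnq5*, *Kcng3*, *Kcns3* and *Kcnk1*, and 4 that had not passed with all libraries were called, *Kcnma1*, *Kcnj8*, *Kcnj15* and *Kcnk3*. The sign of all 30 called genes was kept when any 1 of the 6 libraries was left out.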

How the data were processed

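Bulk RNA-seq of 6 libraries was used, 3 from *Nf1fl/fl;DhhCre* mice and 3 labelled double knockout. RNA was amplified with the NuGEN Ovation system, made into Nextera XT libraries and aligned by the authors to mm10 with TopHat. The deposited values are read counts per gene from featureCounts, not normalized. Which annotation was counted, whether strand was used and how multiply aligned reads were handled are not given in the sources used here.

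Low genes were removed by filterByExpr with a minimum count of 10 and a minimum total of 15, and libraries were scaled by TMM (factors 0.950 to 1.04) in edgeR 4.0.16, then fitted with limma-voom (limma 3.58.1, R 4.3.3) with genotype as the only term, over 15652 genes. Adjusted p-values are Benjamini-Hochberg values over all genes tested, and a call needed one below 0.05 with a difference over 2-fold. CPM used the TMM-scaled totals, and log2 levels 0.5 CPM as pseudocount. Exon lengths and positions were from GENCODE M21. Replicate numbers were given in label order and pair no mice. Within a genotype, chi-square over degrees of freedom between libraries was 21.7 to 133.

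The members, the classes and the lists were chosen with earlier results of these data known. The rule named the called members with the 15 largest changes in each direction, the 5 highest per kb in either genotype, all members of the glial, immune, vascular and muscle lists, and the 5 neuronal members of highest CPM that were not called. Others are given by class. Some genes are counted but not reported here by name. The steps were tested on simulated data. DESeq2 1.42.0, edgeR's quasi-likelihood test, other scalings, filters and weights, unadjusted p and leaving out each library were tried as alternatives. Plots used Python 3.11.15 with matplotlib 3.10.9.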

Additional observations from a re-analysis of the deposited data

How the results depend on the processing

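With all 6 libraries kept, the number of potassium channel genes called higher ranged from 23 (edgeR) to 36 (DESeq2), against 28. The number called lower was 2 or 3, except 5 with sample quality weights and 4 with unadjusted p. With any 1 library left out, the counts ran from 0 to 30 for genes called higher and from 0 to 3 for genes called lower, and from 2 to 11 for partner genes called higher. Without *Nf1fl/fl;DhhCre* replicate 1 there were 0 called genes in both directions by limma-voom. Without *Nf1fl/fl;DhhCre* replicate 3 there were 8 higher and 1 lower, without replicate 2 labelled double knockout 9 higher, and without replicate 3 labelled double knockout 18 higher. The share of all genes called moved with these counts, from 13.4% with all libraries to 2.26%, 6.47%, 6.36% and 9.98% in these fits in the same order, and was 14.5% with edgeR and 18.6% with DESeq2. None of the 30 called genes was called in all 6 of these fits, and 17 were called in 3 or more. The log2 fold change of *Kcnj10* ranged from -1.45 to -1.004 in them. Of the 71 genes tested, 10 had estimates of both signs among these fits, none of them called. These were *Kcnj13* and *Kcnk13*, which are given by library in the text, and *Kcnn2*, *Kcnt2*, *Kcnh8*, *Kcnj2*, *Kcne4*, *Kcnab3*, *Kcnk10* and *Kcnk2*. With edgeR 23 of the 30 called genes were still called. *Kcnk13*, at 0.23, was at -0.00836 with edgeR and -0.0150 with DESeq2, -0.19 with sample quality weights and -0.0344 without both libraries with the highest muscle marker sums, and its range over the fits without 1 library was from -0.00494 to 0.75. *Kcnj13*, at -0.07, was at 0.0466 with sample quality weights, 0.26 without both muscle-rich libraries, and between -0.32 and 0.29 in the fits without 1 library. The cause was not tested. The ratio to *Kcnj10* did not overlap between genotypes for 37 or 38 of 40 neuronal genes at the other pseudocounts. With 1 CPM the split of the 40 around the neuron marker change was 22 within 0.5, 17 below and 1 above. Genes near the filter, such as *Kcnf1* and *Kcnmb2*, are limited by depth. No paired analysis was possible because the replicate numbers were given in label order and mark no shared mouse, litter or batch.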

Other observations

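Some potassium channel genes lie next to one another, and neighbours did not always move alike. *Kcnj9*, a neuronal inward rectifier gene, ends 11892 bp before the start of *Kcnj10* on chromosome 1, and it had a log2 fold change of -0.83 ± 0.50 SE (limma-voom adjusted p = 0.284) beside -1.25 for *Kcnj10*. On chromosome 3, *Kcna3* (-2.30) and *Kcna2* (0.71) are separated by 63076 bp and had estimates of opposite sign. On chromosome 6, *Kcna5* (0.99), *Kcna1* (0.39) and *Kcna6* (0.61) lie in a row, with gaps of 104985 and 61945 bp. *Kcnmb1* lies within *Kcnip1* on the other strand of chromosome 11, and both were up-regulated (1.57 and 2.51). Whether strand was used in counting is not given in the sources used here.

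Symbols of another form that begin with Kcn were not counted as members. *Kcnq1ot1*, an antisense RNA from the *Kcnq1* locus, was at 1003 ± 147 CPM in the *Nf1fl/fl;DhhCre* libraries and at 959 ± 57.7 CPM in those labelled double knockout (SD, n = 3 each). *Kcnq1* itself was at 0.69 to 1.48 CPM in the 6 libraries. *Kcnrg*, for a regulator of Kv channel assembly, had a log2 fold change of -0.20 (limma-voom adjusted p = 0.374). *Kcnd3os*, antisense to *Kcnd3*, had 0, 3 and 0 counts against 4, 11 and 17 counts and was under the filter.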
